A study of Mus musculus with 55 samples.

Results

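The 10 genes described here form the growth hormone and insulin-like growth factor (IGF) axis of fat tissue: the ligand Igf1, the receptors Ghr and Igf1r, the feedback inhibitor Socs2 and the binding proteins Igfbp2, Igfbp3, Igfbp4, Igfbp5, Igfbp6 and Igfbp7. They were found by symbol, all 10 of them, among the 31933 genes of 3 deposited tables of raw read counts, 1 table per fat depot. The tissues were brown fat from between the shoulder blades (iBAT), white fat around the gonads (goWAT) and white fat under the skin (scWAT), all from male C57BL/6NRj mice aged 10 weeks. Mice drank corticosterone (GC), the main glucocorticoid of rodents, or placebo (Ctrl) over 4 weeks while they lived at 13 °C or at 22 °C. In iBAT, 5 libraries were from GC at 13 °C, 5 from Ctrl at 13 °C, 5 from GC at 22 °C and 3 from Ctrl at 22 °C. The same groups had 5, 5, 5 and 4 libraries in goWAT and 4, 5, 5 and 4 in scWAT, 55 libraries in all. Pieces of frozen sections were cut out by laser and about 2 ng of RNA was sequenced with SMART-Seq2, a full-length method that does not keep the strand. The labels do not say how the pieces were chosen or which of them share a mouse, so that p-values measure the spread between libraries, which may be partly technical and is too small a measure of error wherever libraries of 1 group share a mouse.

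Growth hormone binds its receptor Ghr, which signals through the kinase JAK2 and the transcription factor STAT5. STAT5 switches on Igf1 and Socs2, and the Socs2 protein damps the signal of the receptor in a feedback loop. Circulating IGF-1 comes mostly from the liver, but fat makes it as well, and the receptor Igf1r passes the IGF signal on through the insulin receptor substrates. The binding proteins set how much IGF is free: Igfbp3 is the main carrier in serum, Igfbp4 is mostly an inhibitor, Igfbp5 also binds to matrix, Igfbp6 prefers IGF-2, and Igfbp7 is a distant relative with low affinity for IGFs.

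By the mean over both temperatures, corticosterone lowered Socs2 and raised Igfbp3 in each depot. Socs2 was 4.57-fold lower in iBAT, 2.17-fold in goWAT and 2.8-fold in scWAT, and Igfbp3 was 1.77-fold, 3.04-fold and 4.73-fold higher. The iBAT rise of Igfbp3 passed at neither temperature alone, and its mean no longer passed without any 1 of 12 libraries. In goWAT Igfbp2, Igfbp4 and Igfbp5 rose as well, and in scWAT Ghr did. Igf1, Igf1r, Igfbp6 and Igfbp7 did not pass the test for GC in any depot. At 13 °C the levels of Igf1, Igfbp5 and Igfbp7 were lower in scWAT by the mean over both treatments, and no member passed for temperature in iBAT or goWAT by edgeR, the main test.

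Library totals ran from 8622178 to 56450653 reads in genes. Ucp1, which marks brown fat, had 1158 to 13256 CPM (read counts scaled by library size and TMM factor) in iBAT, and Adipoq, which marks adipocytes, had at least 496 CPM in every library of the 3 depots. Some libraries carried markers of other tissues. The macrophage list reached 10590.0 CPM in scWAT and 4496 CPM in iBAT with GC at 22 °C, the epididymis list 3572 CPM in goWAT Ctrl at 13 °C, and the epithelial keratin list 130.5 CPM in scWAT with GC at 13 °C. The skeletal muscle list reached 2490 CPM in scWAT with GC at 22 °C and 920 CPM in iBAT with GC at 13 °C. In goWAT with GC the brown adipocyte list reached 1987 CPM at 13 °C and 1358 CPM at 22 °C. In scWAT the keratin libraries are 3 of the 4 GC libraries and 1 Ctrl library at 13 °C. In tissue pieces, fewer cells of a type and less RNA per cell cannot be told apart. Of 2 known targets of the glucocorticoid receptor, Fkbp5 was higher with GC in goWAT at 22 °C (log2 1.98 ± 0.38 SE, adjusted p = 0.00301) and did not pass at 13 °C (log2 -0.23 ± 0.34 SE, adjusted p = 0.806). At neither temperature did it pass in iBAT (adjusted p = 0.797 at 13 °C and 0.209 at 22 °C) or in scWAT (0.915 and 0.0735). Tsc22d3 was lower with GC in iBAT at 13 °C (log2 -2.21 ± 0.29 SE, adjusted p = 0.000397) and did not pass at 22 °C (log2 -0.56 ± 0.32 SE, adjusted p = 0.544), and it passed at neither temperature in goWAT or scWAT. The difference between the temperatures passed for Fkbp5 in goWAT (adjusted p = 0.0481), a call lost without any 1 of 13 libraries, and not for Tsc22d3 in iBAT (0.708).

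The starts of the 4 binding protein genes that rose in goWAT are shown because these members were called higher there by the mean over both temperatures. Each run holds 250 bases before and 50 after a RefSeq start, 5′ to 3′ on the strand of the gene, from GRCm38.p6. The windows are chr1:72824230-72824529 (plus strand, the first of 2 listed starts) for Igfbp2, chr11:7213874-7214173 (minus strand) for Igfbp3, chr11:99040994-99041293 (plus strand) for Igfbp4 and chr1:72874816-72875115 (minus strand) for Igfbp5. Capitals mark matches to the motifs searched on both strands.
Igfbp2: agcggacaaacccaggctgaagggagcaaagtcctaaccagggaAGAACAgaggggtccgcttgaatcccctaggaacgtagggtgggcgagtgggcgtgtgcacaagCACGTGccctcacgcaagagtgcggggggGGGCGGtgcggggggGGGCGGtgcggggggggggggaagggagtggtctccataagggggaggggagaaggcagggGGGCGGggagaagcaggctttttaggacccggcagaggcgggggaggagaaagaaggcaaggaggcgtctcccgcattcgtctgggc
Igfbp3: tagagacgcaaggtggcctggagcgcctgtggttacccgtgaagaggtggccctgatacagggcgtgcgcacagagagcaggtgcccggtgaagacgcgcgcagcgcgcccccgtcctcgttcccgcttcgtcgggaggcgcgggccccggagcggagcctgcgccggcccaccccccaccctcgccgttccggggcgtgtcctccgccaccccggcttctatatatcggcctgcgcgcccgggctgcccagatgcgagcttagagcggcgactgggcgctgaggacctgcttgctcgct
Igfbp4: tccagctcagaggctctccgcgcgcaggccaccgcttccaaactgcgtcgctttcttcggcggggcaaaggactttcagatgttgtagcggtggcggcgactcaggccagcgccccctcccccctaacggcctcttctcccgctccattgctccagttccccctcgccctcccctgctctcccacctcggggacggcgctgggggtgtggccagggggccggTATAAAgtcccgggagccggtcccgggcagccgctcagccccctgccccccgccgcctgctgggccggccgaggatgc
Igfbp5: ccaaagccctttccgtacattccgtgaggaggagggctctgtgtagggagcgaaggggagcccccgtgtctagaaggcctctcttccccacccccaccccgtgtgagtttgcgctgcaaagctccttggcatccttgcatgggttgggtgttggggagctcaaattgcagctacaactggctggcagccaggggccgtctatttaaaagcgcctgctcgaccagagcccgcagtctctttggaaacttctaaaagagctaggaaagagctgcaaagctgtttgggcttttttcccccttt
The motifs were the glucocorticoid receptor element (GNACA, 3 bases of any kind and TGTNC), its partial site AGAACA, the STAT5 element TTCNNNGAA, the E-box CACGTG, the TATA box TATAAA and the GC box GGGCGG. The Igfbp2 window held the partial site at -206 from the start, the E-box at -142 and GC boxes at -113, -98 and -37. The Igfbp4 window held a TATA box at -28, and the windows of Igfbp3 and Igfbp5 held none of these letters. Of 32851 RefSeq windows of this length, 19% held the partial site, 0.475% the whole receptor element, 8.3% the STAT5 element, 7.15% the E-box, 13.6% the TATA box and 35.7% the GC box. A match is a run of letters, not a tested site. By the GENCODE annotation of GRCm38, used for all gene positions, Igfbp2 and Igfbp5 are neighbours on chromosome 1, at chr1:72824503-72852474, plus strand, and chr1:72857932-72874884, minus strand.

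Levels were compared between genes per length, as CPM per kilobase of exon, with the mean of the 4 group means of a depot. In iBAT the order was led by Igfbp7 at 43.4 and Ghr at 35.9 CPM per kilobase, ahead of Igfbp6 at 12.7 and Igfbp4 at 12. In goWAT Ghr led with 222, followed by Igfbp4 at 153, Igfbp7 at 117 and Igfbp6 at 109. In scWAT Igfbp7 led with 183, followed by Ghr at 163, Igfbp4 at 120.2 and Igfbp6 at 79. The same 4 genes thus headed each depot, and the library ranges of neighbours among them overlapped. Igf1 had 6.34 CPM per kilobase in iBAT, 23.8 in goWAT and 22.8 in scWAT. Its receptor Igf1r had 0.413, 0.805 and 0.939, and Socs2 had 1.51, 1.54 and 1.6. Summed over the 6 binding proteins, the mean in goWAT was 524 ± 203 CPM per kilobase with GC (SD, n = 5) and 289.9 ± 66.5 in Ctrl (n = 5) at 13 °C. At 22 °C it was 509 ± 116 with GC (n = 5) and 343 ± 102 in Ctrl (n = 4). The mean with GC was the higher one at both temperatures. In iBAT the sum was 69.6 ± 27.2 with GC (n = 5) and 62.2 ± 20.9 in Ctrl (n = 5) at 13 °C, and 59.5 ± 15.6 with GC (n = 5) and 129 ± 69.2 in Ctrl (n = 3) at 22 °C. In scWAT it was 368 ± 185 with GC (n = 4) and 306 ± 52.6 in Ctrl (n = 5) at 13 °C, and 548 ± 88.7 with GC (n = 5) and 473 ± 187 in Ctrl (n = 4) at 22 °C. At 22 °C the mean in iBAT was lower with GC than in Ctrl, and no test was made on these sums.

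**Figure D1:**
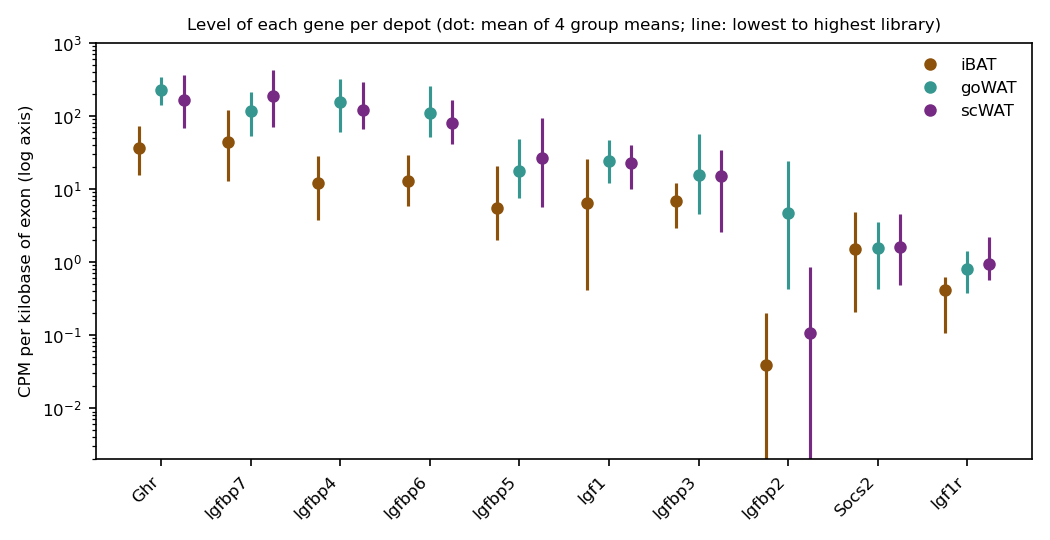
Level of each of the 10 genes by depot (iBAT, goWAT, scWAT), in CPM per kilobase of exon on a log axis, scaled within each depot. Dots are means of the 4 group means and lines run from the lowest to the highest library, reaching the lower edge where a library had 0. Ghr, Igfbp7, Igfbp4 and Igfbp6 head each depot, and Igfbp2 is near 0 outside goWAT.

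How the depots differ in level was tested in 1 fit over all 55 libraries, as the mean over the 4 conditions, with CPM scaled over all of them. Libraries of different depots may come from the same mouse, which the labels do not tell. The fit treated all libraries as independent, so its p-values leave any such pairing out. Against goWAT, iBAT was lower for 9 of the 10 members, where 34.1% of all genes tested were called lower and 57.4% were called in either direction. Against scWAT, iBAT was lower for 7 of 10, where 26.5% were called lower and 44.6% in either direction. The median difference of all genes was -0.2 on the log2 scale against goWAT and -0.15 against scWAT, and differences are to be read relative to it. Igfbp4 averaged 65 CPM in iBAT, 607 CPM in goWAT (log2 -3.24 ± 0.23 SE, adjusted p = 2.8e-17) and 479 CPM in scWAT (log2 -2.96 ± 0.22 SE, adjusted p = 2.1e-15). Igfbp6 averaged 17.3 CPM in iBAT, 109.6 CPM in goWAT (log2 -2.67 ± 0.2 SE, adjusted p = 1.0e-16) and 79.6 CPM in scWAT (log2 -2.24 ± 0.19 SE, adjusted p = 8.4e-14). Ghr averaged 399 CPM in iBAT, 1813 CPM in goWAT (log2 -2.22 ± 0.17 SE, adjusted p = 8.9e-16) and 1335 CPM in scWAT (log2 -1.68 ± 0.17 SE, adjusted p = 1.1e-11). The Igfbp3 difference between iBAT and goWAT was lost without the libraries numbered 2 (adjusted p = 0.0529). Socs2 passed no depot test, at 17.6 CPM in iBAT, 13.3 CPM in goWAT and 13.7 CPM in scWAT, and the 95% interval of its log2 difference between iBAT and goWAT ran from -0.24 to 0.52.

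Between the white depots 3 of 10 members passed, where 18% of all genes did. Igfbp2, a binding protein also made by preadipocytes and liver, averaged 7.76 CPM in goWAT and 0.178 CPM in scWAT (log2 5.69 ± 0.48 SE, adjusted p = 2.4e-13). It had 19 to 2206 reads per library in goWAT, while 4 iBAT and 5 scWAT libraries had none, which allows up to 0.211 and 0.347 CPM there. Igfbp2 was therefore tested for GC and temperature in goWAT only. The mesothelial list, 8 of 8 genes found, summed to 19.8 to 401 CPM over goWAT libraries and at most 6.67 CPM in iBAT. In scWAT at 22 °C the list summed to at most 5.17 CPM in Ctrl and 3.87 CPM with GC. At 13 °C it reached 77.4 CPM in scWAT Ctrl and 245 CPM with GC, the groups that hold the keratin libraries. The part of the mesothelial list in the level of Igfbp2 was not tested. Ghr was 1.45-fold higher in goWAT (log2 0.54 ± 0.16 SE, adjusted p = 0.014) and Igfbp7 1.49-fold lower (log2 -0.58 ± 0.2 SE, adjusted p = 0.0362). The Ghr call was lost without the libraries numbered 3 (adjusted p = 0.0754) or 4 (0.0739) and the Igfbp7 call without those numbered 1 (0.057), 2 (0.108), 3 (0.0933) or 5 (0.26). Both were lost without the 4 keratin libraries (adjusted p = 0.185 for Ghr and 0.225 for Igfbp7). The Igfbp7 call was also lost without the 2 goWAT libraries with brown fat transcripts (0.0918), with limma (0.0606) and with RLE factors (0.0501).

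GC was compared with Ctrl at each temperature and as the mean over both. At 13 °C, 1 of 9 members tested passed in iBAT, where 0.728% of all genes did, 1 of 10 in goWAT (1.45%) and 2 of 9 in scWAT (2.59%). At 22 °C, 1 of 9 passed in iBAT (0.664%), 3 of 10 in goWAT (5.98%) and 2 of 9 in scWAT (6.93%). By the mean over both temperatures, 2 of 9 passed in iBAT (2.84%), 5 of 10 in goWAT (8.39%) and 3 of 9 in scWAT (11.1%). The shares of members were above those of all genes in each of these 9 counts. The counts are not independent, since the mean combines both temperatures, and some rest on 1 gene. The list was chosen with earlier results of these data known. Leaving out 1 library could bring the count to 0 for iBAT at 22 °C and for goWAT at 13 °C. The median log2 difference of the members tested, for the mean over both temperatures, in iBAT was -0.55, in goWAT 0.59 and in scWAT 0.25, where that of all genes was 0.01, 0.04 and 0.04. In iBAT at 22 °C the median of the members was -1.21 and 8 of 9 had an unadjusted p under 0.05, as 11.1% of all genes did, although only Socs2 passed after adjustment. The Ctrl group there held 3 libraries, with 205, 251 and 15.2 CPM of Igf1 and 122, 71.3 and 14.3 CPM of Igfbp5. Of the members, only Igf1r and Socs2 had groups without overlap there, as in 7.57% of all genes.

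**Figure D2:**
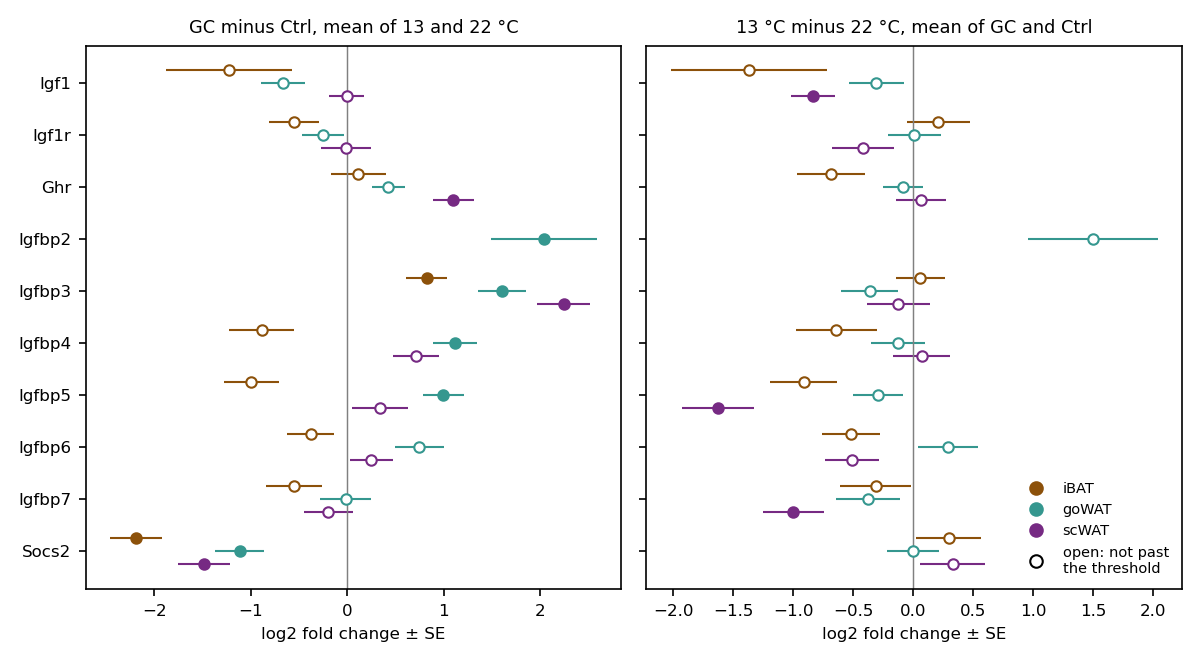
Log2 fold change with its SE for the 10 genes in iBAT, goWAT and scWAT, for GC minus Ctrl averaged over the temperatures and for 13 °C minus 22 °C averaged over the treatments. Filled dots passed the test over all genes of the depot. For GC, Socs2 lies below 0 and Igfbp3 above 0 in each depot, and for temperature the filled dots are Igf1, Igfbp5 and Igfbp7 in scWAT.

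Igf1, the ligand, lies at chr10:87858265-87937042, plus strand. In goWAT it had 132, 216, 136, 133 and 143 CPM with GC at 13 °C, against 272, 132, 323, 199.7 and 458 CPM in Ctrl. At 22 °C Igf1 had 138, 346, 118, 298 and 180.2 CPM with GC, against 257, 399.6, 306 and 233 CPM in Ctrl. Groups overlapped at both temperatures, and the mean difference missed the threshold (log2 -0.67 ± 0.23 SE, adjusted p = 0.0728). In scWAT the mean difference was close to 0 (log2 -0.01 ± 0.18 SE, adjusted p = 0.986). In iBAT Igf1 had 15.6, 92, 9.4, 9.11 and 4.03 CPM with GC at 13 °C, against 71.6, 10.9, 11.4, 48.7 and 19.2 CPM in Ctrl, and 21.3, 19.5, 10.5, 55 and 71.9 CPM with GC at 22 °C, against 205, 251 and 15.2 CPM in Ctrl. The high values of Ctrl replicates 1 and 2 at 22 °C stood alone, and these libraries also had the highest Igfbp4 and Igfbp5 of iBAT. The adipocyte list, 9 of 9 genes found, summed to 15475 to 26009 CPM with GC at 22 °C, against 25916 to 57859 CPM in Ctrl, and the stromal list, 10 of 10 genes found, to 221 to 683 CPM, against 313 to 1507 CPM in Ctrl. The adipocyte genes did not move together. Cfd had 365 to 1211 CPM with GC, against 1414 to 21650 CPM in Ctrl, while Lep had 60 to 150 CPM, against 3.39 to 29.8 CPM in Ctrl. Groups overlapped for each other gene of that list. The part of both lists in these values was not tested.

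Igf1r, the receptor tyrosine kinase for IGF-1 (chr7:67952827-68233668, plus strand), passed no test within a depot. In iBAT at 22 °C it had 1.78, 5.03, 4.31, 5.86 and 6.57 CPM with GC, against 9.89, 7.43 and 7.81 CPM in Ctrl. The groups did not overlap, as in 7.57% of all genes there, but the test did not pass (log2 -0.83 ± 0.39 SE, adjusted p = 0.43). At 13 °C in iBAT, and in both white depots, its groups overlapped.

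Ghr, the growth hormone receptor (chr15:3317760-3583492, minus strand), rose with GC in scWAT. At 13 °C it had 2869, 2171, 1765 and 2274 CPM with GC, against 1205, 743, 772, 952 and 605 CPM in Ctrl. Every GC library was above every Ctrl library, as in 8.53% of all genes there, and the difference was 2.65-fold (log2 1.41 ± 0.3 SE, adjusted p = 0.0107). At 22 °C Ghr had 3274, 1160.2, 1209.6, 1679.8 and 1436 CPM with GC, against 981, 839, 1313 and 929 CPM in Ctrl. These groups overlapped and missed the threshold (log2 0.79 ± 0.3 SE, adjusted p = 0.12), while the mean over both temperatures passed (log2 1.1 ± 0.21 SE, adjusted p = 0.00148). Without the 4 keratin libraries, which leave 1 GC library at 13 °C that is assumed to vary like the other groups, the 13 °C difference was 1.72 with an adjusted p of 0.327. In goWAT at 13 °C Ghr had 2485, 2532, 2554, 2183 and 2074 CPM with GC, against 1271, 1569.6, 1999, 1295 and 1687 CPM in Ctrl. There too the groups did not overlap, as in 4.79% of all genes, but the test did not pass (log2 0.6 ± 0.23 SE, adjusted p = 0.209). In iBAT groups overlapped and the mean difference was 0.11 ± 0.28 (log2, SE).

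Socs2, which STAT5 induces and which damps growth hormone signalling, lies at chr10:95385362-95417180, minus strand. In iBAT at 13 °C it had 5.84, 8.5, 3.52, 4.51 and 3.31 CPM with GC, against 19.3, 22, 33.4, 21.5 and 46.1 CPM in Ctrl. At 22 °C Socs2 had 1.99, 3.89, 7.99, 6.47 and 5.07 CPM with GC, against 21.9, 22.3 and 12.9 CPM in Ctrl. Every GC library was below every Ctrl library of its temperature, as in 2.65% of all genes at 13 °C and 7.57% at 22 °C. The difference was 5.55-fold at 13 °C (log2 -2.47 ± 0.37 SE, adjusted p = 0.00138) and 3.76-fold at 22 °C (log2 -1.91 ± 0.39 SE, adjusted p = 0.0208). The 22 °C call was lost without Ctrl replicate 1 (adjusted p = 0.123) or 2 (0.0931), without GC replicate 1 (0.0568) or 2 (0.0596), without the 2 macrophage-rich libraries (0.195), and with only the 2 groups in the fit (0.08). Of the 2 macrophage-rich libraries, 1 is this same Ctrl replicate 1, from the smallest group. The macrophage list reached at most 456 CPM in that Ctrl group, against 4496 CPM with GC at 22 °C. The 13 °C call and the mean (log2 -2.19 ± 0.27 SE, adjusted p = 3.8e-05) were lost under none of the alternatives run.

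In goWAT Socs2 had 7.1, 5.13, 12.9, 19.1 and 9.04 CPM with GC at 13 °C, against 11.4, 10.3, 20.2, 14.8 and 28.3 CPM in Ctrl, which overlapped (adjusted p = 0.367). At 22 °C Socs2 had 8.9, 7.89, 8.65, 4.11 and 9.61 CPM with GC, against 14.8, 33.3, 16.3 and 28.1 CPM in Ctrl. There was no overlap, as in 8.32% of all genes (log2 -1.56 ± 0.37 SE, adjusted p = 0.0142), and the mean passed too (log2 -1.12 ± 0.25 SE, adjusted p = 0.00828). The 22 °C call was lost without Ctrl replicate 2 (adjusted p = 0.0589) or 4 (0.0544), without the 2 libraries of low quality, both from GC at 22 °C (0.0781), and with limma (0.0537). In scWAT Socs2 had 11.6, 8.64, 7.78 and 10.4 CPM with GC at 13 °C, against 16, 13.9, 24.4, 37.8 and 23.9 CPM in Ctrl, and 7.08, 7.61, 5.07, 4.63 and 8.58 CPM with GC at 22 °C, against 22.4, 43.4, 9.01 and 10.9 CPM in Ctrl. Neither temperature showed overlap, as in 8.53% of all genes at 13 °C and 8.49% at 22 °C. The test passed at 22 °C (log2 -1.7 ± 0.38 SE, adjusted p = 0.00884) and by the mean (log2 -1.48 ± 0.27 SE, adjusted p = 0.000977) but not at 13 °C (log2 -1.27 ± 0.39 SE, adjusted p = 0.0847). Without Ctrl replicate 2, the highest, the 22 °C difference was -1.09 (adjusted p = 0.0828), with limma it was -1.42 (0.0614), and without the 4 keratin libraries the mean was -1.34 (adjusted p = 0.169).

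Igfbp3, the main IGF carrier of serum, lies at chr11:7206086-7213923, minus strand. In scWAT at 13 °C it had 86, 47.9, 46.4 and 104 CPM with GC, against 18.3, 16.2, 15.8, 17.6 and 12.6 CPM in Ctrl. At 22 °C Igfbp3 had 96.3, 67.6, 55.6, 91 and 106 CPM with GC, against 38.1, 10.4, 8.97 and 8.07 CPM in Ctrl. Every GC library was above every Ctrl library of its temperature, as in 8.53% of all genes at 13 °C and 8.49% at 22 °C. The rise was 4.39-fold at 13 °C (log2 2.14 ± 0.38 SE, adjusted p = 0.00269) and 5.09-fold at 22 °C (log2 2.35 ± 0.4 SE, adjusted p = 0.00107). Without the 4 keratin libraries the 13 °C difference was 2.42 with an adjusted p of 0.0993, and the mean (log2 2.24 ± 0.28 SE, adjusted p = 1.5e-05) was lost under none of the alternatives run. The brown adipocyte list, 8 of 8 genes found, also moved with GC in scWAT, summing to 224 to 733 CPM with GC at 13 °C, against 1178 to 3751 CPM in Ctrl, and to 89.2 to 271 CPM with GC at 22 °C, against 827 to 3350.2 CPM in Ctrl. The lymphocyte list, 8 of 8 genes found, summed to 2.08 to 8.77 CPM with GC at 13 °C, against 6.57 to 31.8 CPM in Ctrl. At 22 °C that list summed to 0.809 to 2.79 CPM with GC, against 6.63 to 15.6 CPM in Ctrl. The part of both lists in the scWAT values of Igfbp3, Socs2 and Ghr was not tested.

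In goWAT Igfbp3 had 67.8, 48.3, 80.4, 34.3 and 54.5 CPM with GC at 13 °C, against 27.5, 31.7, 19.9, 14.2 and 17.9 CPM in Ctrl. At 22 °C Igfbp3 had 178, 92.8, 54.2, 43.9 and 64.8 CPM with GC, against 21.3, 17.4, 25 and 32.8 CPM in Ctrl. Neither temperature showed overlap, as in 4.79% of all genes at 13 °C and 8.32% at 22 °C. The rise was 2.57-fold at 13 °C (log2 1.36 ± 0.33 SE, adjusted p = 0.04) and 3.6-fold at 22 °C (log2 1.85 ± 0.36 SE, adjusted p = 0.00362). The 13 °C call was lost without any 1 of 10 libraries, which were Ctrl replicates 1, 3, 4 and 5 and GC replicates 1, 3 and 5 at 13 °C, and Ctrl replicates 1 and 3 and GC replicate 2 at 22 °C (highest adjusted p = 0.112), and without the 3 epididymis libraries (0.194). The 22 °C call and the mean (log2 1.6 ± 0.25 SE, adjusted p = 0.00023) were lost under none of the alternatives run.

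In iBAT Igfbp3 had 37.3, 27.9, 20.2, 18.3 and 36.1 CPM with GC at 13 °C, against 12.6, 12.9, 16.5, 11.2 and 22.4 CPM in Ctrl. At 22 °C Igfbp3 had 26.1, 32.4, 23.8, 27.2 and 18.8 CPM with GC, against 15.7, 9.13 and 20.7 CPM in Ctrl. At both temperatures the lowest GC library was below the highest Ctrl library, and neither temperature passed alone (adjusted p = 0.163 at 13 °C and 0.353 at 22 °C). The mean passed (log2 0.82 ± 0.21 SE, adjusted p = 0.0355) but was lost without any 1 of 12 libraries, which were Ctrl replicates 1, 2, 3 and 4 and GC replicates 1, 2 and 5 at 13 °C, and Ctrl replicates 1 and 2 and GC replicates 1, 2 and 4 at 22 °C (highest adjusted p = 0.129), and without the 2 macrophage-rich libraries (0.0899).

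**Figure D3:**
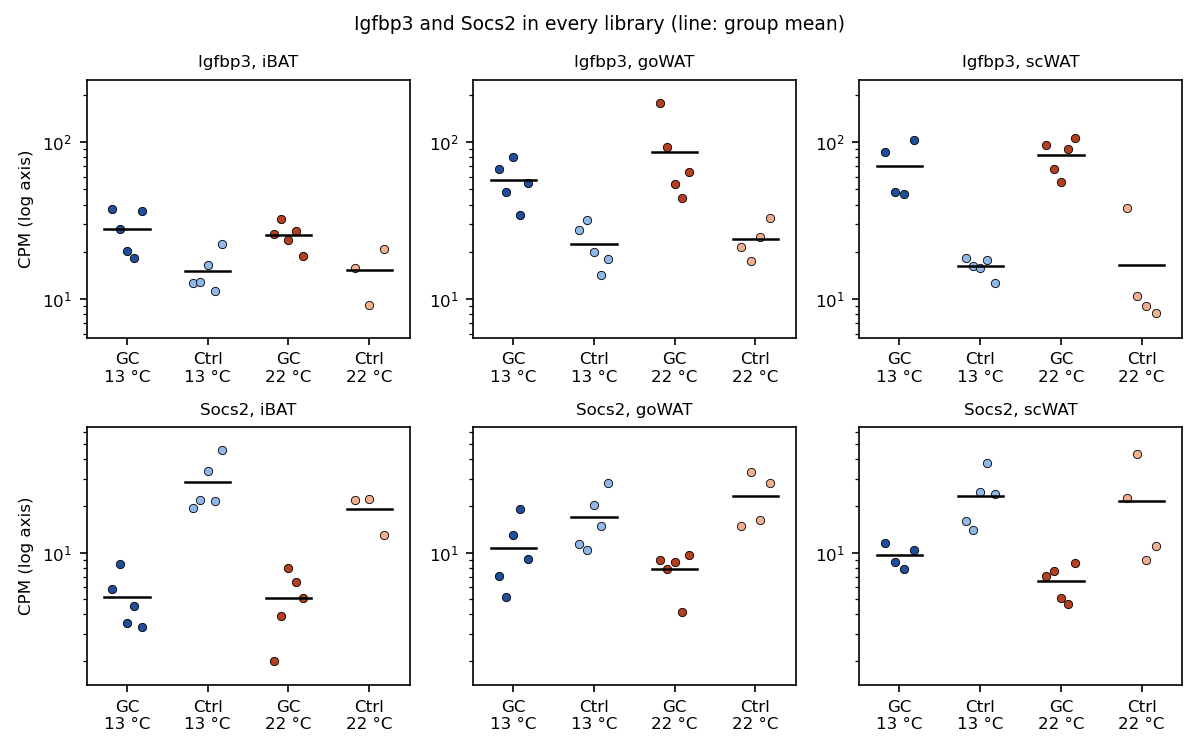
CPM of Igfbp3 and Socs2 in every library of iBAT, goWAT and scWAT on a log axis, by treatment and temperature, with the group mean as a line. GC libraries of Igfbp3 lie above and those of Socs2 below their Ctrl libraries, with overlap for Igfbp3 in iBAT and for Socs2 in goWAT at 13 °C.

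Igfbp4, mostly an inhibitor of IGF action, lies at chr11:99041244-99054392, plus strand, and rose in goWAT. It had 497, 706, 1387, 802 and 1195 CPM with GC at 13 °C, against 361, 261, 374, 419.7 and 538 CPM in Ctrl. At 22 °C Igfbp4 had 1098, 1257, 1123, 579.7 and 579.8 CPM with GC, against 324, 384, 382 and 759.8 CPM in Ctrl. GC replicate 1 at 13 °C was below the highest Ctrl library, and at 22 °C Ctrl replicate 4 was above GC replicates 4 and 5. The mean difference was 2.17-fold (log2 1.12 ± 0.23 SE, adjusted p = 0.00363), and each temperature alone fell short (adjusted p = 0.0502 at 13 °C and 0.0769 at 22 °C). In scWAT the mean difference missed the threshold (log2 0.71 ± 0.24 SE, adjusted p = 0.0607), and in iBAT it was below 0 and did not pass (log2 -0.89 ± 0.33 SE, adjusted p = 0.192).

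Igfbp5, which binds IGFs and matrix, lies at chr1:72857932-72874884, minus strand. In goWAT it had 80.6, 114, 67.5, 88.3 and 146 CPM with GC at 13 °C, against 127, 45.4, 72.9, 74.4 and 50.9 CPM in Ctrl, which overlapped (adjusted p = 0.52). At 22 °C Igfbp5 had 117, 224, 146, 285 and 133 CPM with GC, against 68.1, 60.1, 61.1 and 54.1 CPM in Ctrl. There was no overlap at 22 °C, as in 8.32% of all genes. Igfbp5 rose 2.97-fold there (log2 1.57 ± 0.31 SE, adjusted p = 0.00405), and the mean passed (log2 1.0 ± 0.21 SE, adjusted p = 0.00446). The macrophage list in goWAT, 10 of 10 genes found, summed to 689 to 2476 CPM with GC at 13 °C, against 640.1 to 1325 CPM in Ctrl, and to 974 to 1952 CPM with GC at 22 °C, against 708 to 997 CPM in Ctrl. The endothelial list, 8 of 8 genes found, summed to 436 to 655 CPM with GC at 13 °C, against 623 to 702 CPM in Ctrl, and to 302 to 622 CPM with GC at 22 °C, against 582 to 817 CPM in Ctrl. No gene of either list was at 0 in every library of a group. At both temperatures the ranges with GC and in Ctrl overlapped for each list. The part of both lists in the goWAT values of Igfbp3, Igfbp4 and Igfbp5 was not tested. In iBAT at 22 °C Igfbp5 had 17.3, 24.2, 12.2, 24.4 and 24.1 CPM with GC, against 122, 71.3 and 14.3 CPM in Ctrl, which overlapped through Ctrl replicate 3, and the difference was just short of the threshold (log2 -1.76 ± 0.42 SE, adjusted p = 0.052).

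**Figure D4:**
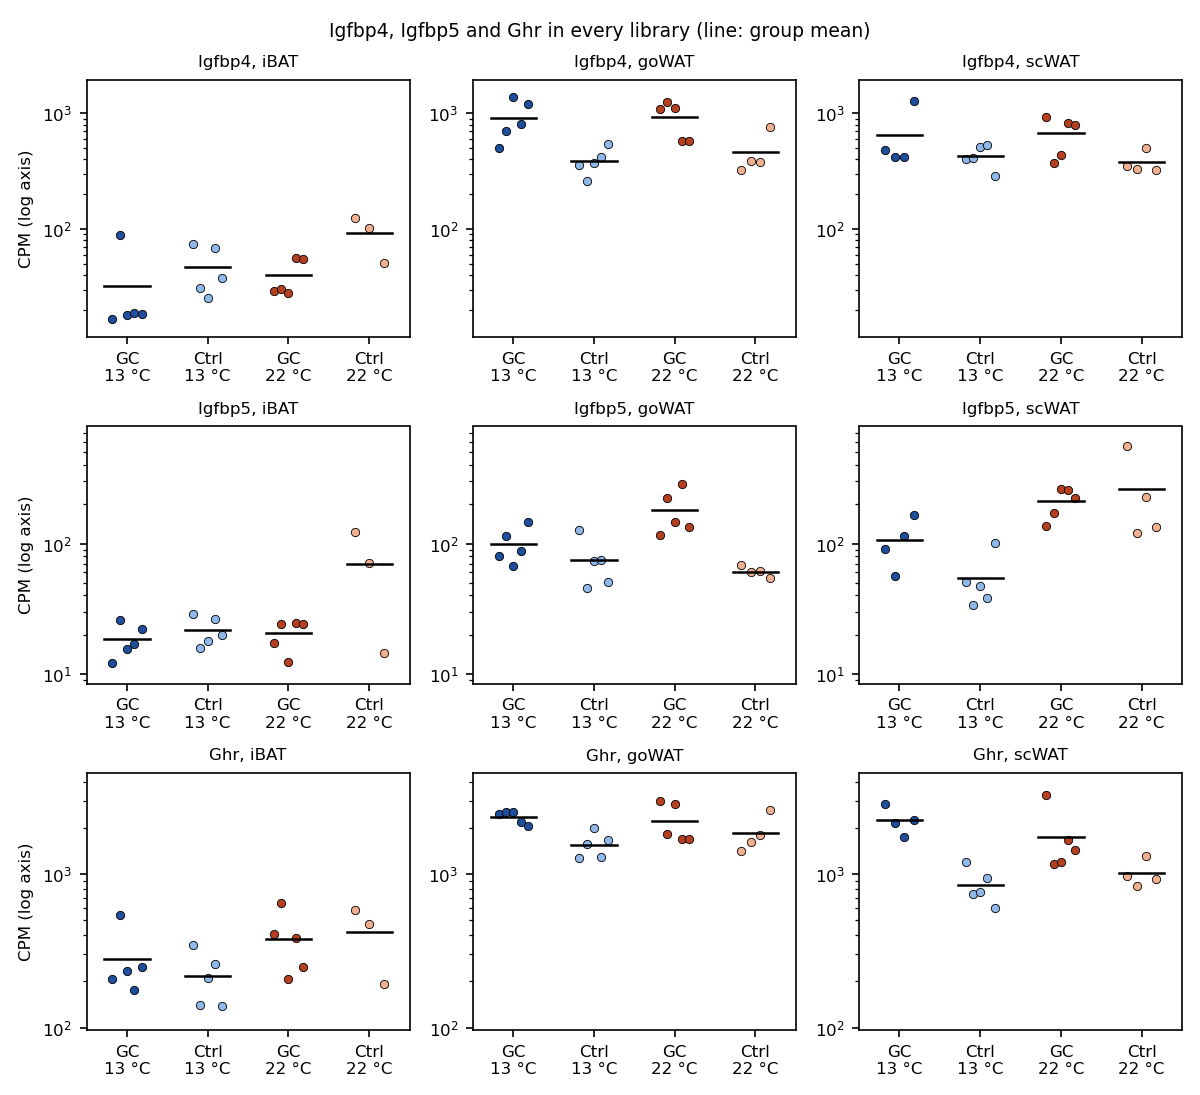
CPM of Igfbp4, Igfbp5 and Ghr in every library of iBAT, goWAT and scWAT on a log axis, by treatment and temperature, with the group mean as a line. In goWAT most GC libraries of Igfbp4 and Igfbp5 lie above their Ctrl libraries, and in scWAT at 13 °C every GC library of Ghr lies above every Ctrl library.

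Igfbp2 in goWAT had 1.75, 6.05, 41.6, 44.1 and 30.5 CPM with GC at 13 °C, against 2.88, 2.15, 1.14, 7.73 and 2.15 CPM in Ctrl. At 22 °C Igfbp2 had 4.14, 2.42, 5.45, 10.1 and 1.2 CPM with GC, against 1.95, 0.799, 2.53 and 3.24 CPM in Ctrl. The values above all others were those of GC replicates 3, 4 and 5 at 13 °C. The mean passed (log2 2.04 ± 0.55 SE, adjusted p = 0.0275), and neither temperature did alone (adjusted p = 0.061 at 13 °C and 0.421 at 22 °C). The call was lost without Ctrl replicate 1 (adjusted p = 0.0584), 2 (0.0591) or 3 (0.0554) at 22 °C, without the 2 libraries of low quality (0.0626), with limma (0.079) and with no low-count filter (0.0563). The mesothelial list summed to 30.5 to 211 CPM with GC at 13 °C, against 44.9 to 401 CPM in Ctrl, and to 50.9 to 138 CPM with GC at 22 °C, against 19.8 to 83.6 CPM in Ctrl.

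Igfbp6, which prefers IGF-2 (chr15:102144362-102149511, plus strand), and Igfbp7, the low-affinity relative (chr5:77349240-77408041, minus strand), passed no test for GC. Igfbp6 came closest in goWAT, with 56.8, 112, 168, 282 and 275 CPM with GC at 13 °C, against 108, 73.2, 71.3, 125 and 87.9 CPM in Ctrl, and 168, 143, 101, 152 and 74.6 CPM with GC at 22 °C, against 133, 62.2, 58.5 and 95.1 CPM in Ctrl (log2 0.75 ± 0.26 SE, adjusted p = 0.0725 for the mean). Groups overlapped at both temperatures. Igfbp7 differed by -0.55 ± 0.29 in iBAT, -0.02 ± 0.26 in goWAT and -0.2 ± 0.25 in scWAT (log2, SE, mean over both temperatures). It shares 85 exonic bases with Polr2b on the other strand, and reads there cannot be told apart.

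Whether the GC effect differs between depots was tested in the fit over 55 libraries, which treated libraries of different depots as independent. At 13 °C it did for 0 of 10 members by edgeR, where 0.234% of all genes passed, and limma with library weights called 1. At 22 °C it did for 1 of 10, Igfbp5 (adjusted p = 0.00836), where 0.742% passed. By the mean it did for 3 of 10, where 3.2% passed: Igfbp4 (adjusted p = 0.00498), Igfbp5 (0.00659) and Igfbp3 (0.0418). Within the depots, the mean GC difference of Igfbp4 in iBAT was -0.89 ± 0.33, in goWAT 1.12 ± 0.23 and in scWAT 0.71 ± 0.24 (log2, SE). That of Igfbp5 was -0.99 ± 0.28, 1.0 ± 0.21 and 0.34 ± 0.29, and that of Igfbp3 was 0.82 ± 0.21, 1.6 ± 0.25 and 2.24 ± 0.28, in the same order. For Igfbp4 and Igfbp5 the value was below 0 in iBAT and above 0 in both white depots, and for Igfbp3 it was lowest in iBAT. In iBAT at 22 °C, where Ctrl had 3 libraries, the GC difference was -1.21 ± 0.5 for Igfbp4 and -1.76 ± 0.42 for Igfbp5. At 13 °C it was -0.56 ± 0.44 and -0.23 ± 0.37 (log2, SE), and neither gene passed within iBAT at either temperature by edgeR. The Igfbp4 call was lost without the libraries numbered 1 (adjusted p = 0.105) and the Igfbp5 call on the mean without those numbered 4 (0.0929). The Igfbp5 call at 22 °C was lost without those numbered 1 (0.0654), 2 (0.146) or 4 (0.0934), and the Igfbp3 call without those numbered 2 (0.0951), 3 (0.227), 4 (0.124) or 5 (0.215). The Igfbp3 call was also lost without the macrophage-rich iBAT libraries (adjusted p = 0.0943), the muscle-rich iBAT libraries (0.0984) or the keratin libraries (0.115), and the 22 °C call of Igfbp5 without the macrophage-rich iBAT libraries (0.0703). For Socs2 the difference between depots did not pass (adjusted p = 0.22), nor for Ghr (0.137).

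For temperature, 3 of 9 members passed in scWAT by the mean over both treatments, all lower at 13 °C, where 11.1% of all genes passed and 6.81% were called lower. At an unadjusted p under 0.05 there were 4 of 9 members and 30.4% of all genes. In iBAT 0 of 9 passed by that mean by edgeR (0.454% of all genes), with 3 members at an unadjusted p under 0.05 (16.8% of all genes). In goWAT 0 of 10 passed (0%), with 1 such member (7.35%). Within GC alone, 0 of 9 passed in iBAT (0.00583%), 0 of 10 in goWAT (0.0149%) and 0 of 9 in scWAT (8.18%), with 0, 2 and 3 members at an unadjusted p under 0.05 (15.5%, 14.3% and 26.6% of all genes). Within Ctrl alone, 0 of 9 passed in iBAT (0.0175%), 0 of 10 in goWAT (0.312%) and 0 of 9 in scWAT (0%), with 5, 0 and 3 such members (8.74%, 6.79% and 12.4% of all genes). DESeq2 called 1 member in iBAT and 2 in scWAT within Ctrl and 1 in scWAT within GC. Limma with library weights called 6 in iBAT and 2 in scWAT within Ctrl, 2 in scWAT within GC and 5 in iBAT by the mean, and both tools called 0 in goWAT.

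In scWAT Igfbp5 had 90.1, 55.9, 114 and 167 CPM at 13 °C with GC, against 137, 172, 264, 257 and 225 CPM at 22 °C. In Ctrl it had 51.1, 33.6, 47.5, 38 and 100.2 CPM at 13 °C, against 565, 121, 226 and 133 CPM at 22 °C. In Ctrl every 13 °C library was below every 22 °C library, as in 4.92% of all genes, and the mean over treatments was 3.1-fold lower (log2 -1.63 ± 0.3 SE, adjusted p = 0.00789). Igf1 in scWAT had 229, 167, 178 and 125 CPM at 13 °C with GC, against 181, 337, 296, 255 and 253 CPM at 22 °C. In Ctrl it had 145, 98.8, 160.0, 129 and 211 CPM at 13 °C, against 377, 387, 293 and 198 CPM at 22 °C. Groups overlapped in both treatments, and the mean was 1.79-fold lower at 13 °C (log2 -0.84 ± 0.18 SE, adjusted p = 0.0113).

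Igfbp7 in scWAT had 101, 84.9, 123 and 227 CPM at 13 °C with GC, against 189, 233, 245, 421 and 318 CPM at 22 °C. In Ctrl it had 94.7, 217, 126, 104 and 267 CPM at 13 °C, against 511, 232, 277 and 211 CPM at 22 °C. Groups overlapped in both treatments, and the mean was 2.0-fold lower at 13 °C (log2 -1.0 ± 0.26 SE, adjusted p = 0.02). The Igfbp7 call was lost without Ctrl replicate 1 at 22 °C (adjusted p = 0.0572) or GC replicate 3 at 13 °C (0.0502). Without the 4 keratin libraries, all at 13 °C, the differences were -1.7 for Igfbp5 (adjusted p = 0.339), -0.63 for Igf1 (0.389) and -1.14 for Igfbp7 (0.34), so no temperature call held there. The stromal list summed to 1208 to 1853 CPM at 13 °C with GC, against 1984 to 5411 CPM at 22 °C, and to 1492 to 2803 CPM at 13 °C in Ctrl, against 2325 to 5469.6 CPM at 22 °C. The macrophage list, 10 of 10 genes found, summed to 518 to 631 CPM at 13 °C with GC, against 622 to 10590.0 CPM at 22 °C, and to 311 to 554 CPM at 13 °C in Ctrl, against 493 to 1185 CPM at 22 °C. The calls of the 3 genes held without the 2 scWAT libraries richest in macrophage transcripts, both from GC at 22 °C. That removal leaves the Ctrl libraries as they were. The part of the stromal and macrophage lists in these values was not tested.

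**Figure D5:**
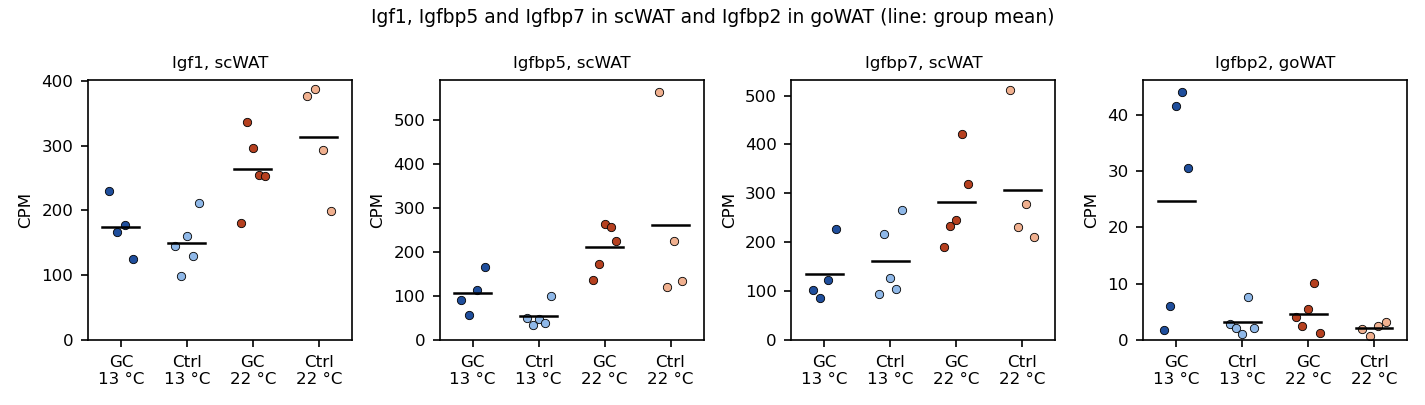
CPM of Igf1, Igfbp5 and Igfbp7 in scWAT and of Igfbp2 in goWAT in every library, by treatment and temperature, with the group mean as a line and axes that start at 0. The scWAT genes have lower group means at 13 °C in both treatments, and 3 of the 5 goWAT GC libraries at 13 °C stand above all others for Igfbp2.

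Whether GC acted differently at 13 °C and at 22 °C was tested as an interaction, which no member passed by edgeR in any depot. Of all genes, 0.461% passed it in goWAT, 0% in iBAT and 0% in scWAT. An unadjusted p under 0.05 was reached by 3 members in iBAT (6.4% of all genes), 1 in goWAT (13.4%) and 1 in scWAT (9.67%), and DESeq2 and limma with library weights called 0. Igfbp5 was among these in each depot, with a GC difference at 13 °C minus that at 22 °C of 1.53 ± 0.56 in iBAT, -1.15 ± 0.42 in goWAT and 1.29 ± 0.58 in scWAT (log2, SE).

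A further 35 genes of the pathway were read from the same fits. By the mean GC effect, 0 rose and 3 fell of 30 tested in iBAT, where 2.84% of all genes passed. In goWAT 3 rose and 3 fell of 32 (8.39% of all genes), and in scWAT 4 rose and 1 fell of 30 (11.1%). The median log2 difference of those tested in iBAT was -0.21, in goWAT -0.27 and in scWAT 0.11, beside the medians of all genes given above. In iBAT these were Foxo1, a transcription factor that insulin and IGF signals keep out of the nucleus (log2 -1.73 ± 0.23 SE, adjusted p = 8.9e-05), Igfals, which joins Igfbp3 in serum complexes (log2 -2.68 ± 0.5 SE, adjusted p = 0.00325), and the insulin receptor substrate Irs2 (log2 -1.39 ± 0.33 SE, adjusted p = 0.0214). Foxo1 had 16.3 to 46.4 CPM with GC at 13 °C, against 63.5 to 119 CPM in Ctrl, and 13.2 to 24.7 CPM with GC at 22 °C, against 42.5 to 81.4 CPM in Ctrl. Its groups did not overlap at either temperature, as in 2.65% of all genes at 13 °C and 7.57% at 22 °C. The Irs2 call was lost without the 3 muscle-rich iBAT libraries (adjusted p = 0.0822) and without 1 single library (0.0608).

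In goWAT Socs1, which blocks JAK kinases, rose (log2 1.49 ± 0.35 SE, adjusted p = 0.011). Socs2 fell there, also by the mean over both temperatures. At 22 °C Socs1 had 3.31 to 18.9 CPM with GC, against 3.37 to 10.3 CPM in Ctrl, which overlapped. At the lower temperature Socs1 had 5.01 to 27.2 CPM with GC, against 1.47 to 4.33 CPM in Ctrl, without overlap. For Socs2 it was the other way round, with overlap only at the lower temperature. Htra1, a secreted protease that cleaves IGFBPs, rose (log2 1.16 ± 0.25 SE, adjusted p = 0.00518), as did the receptor adaptor Grb14 (log2 1.33 ± 0.34 SE, adjusted p = 0.0194). Stc1, a stanniocalcin that inhibits the IGFBP protease PAPP-A, fell (log2 -1.44 ± 0.41 SE, adjusted p = 0.034), as did Stat5a, which carries the growth hormone signal (log2 -0.71 ± 0.18 SE, adjusted p = 0.0177), and Foxo3 (log2 -0.54 ± 0.14 SE, adjusted p = 0.0209). The Foxo3 call was lost without the 3 epididymis libraries (adjusted p = 0.0879) or any 1 of 2 libraries (0.0535), the Grb14 call without 1 library (0.0548), and the Stc1 call without any 1 of 9 libraries (highest adjusted p = 0.107), without the 2 of low quality (0.0743) and with limma (0.0656). In scWAT Socs1 (log2 1.67 ± 0.36 SE, adjusted p = 0.00372), Htra1 (log2 1.13 ± 0.31 SE, adjusted p = 0.022), Grb14 (log2 1.65 ± 0.33 SE, adjusted p = 0.00229) and Stc2, the other stanniocalcin (log2 1.56 ± 0.31 SE, adjusted p = 0.00169), rose, and Stc1 fell (log2 -2.02 ± 0.32 SE, adjusted p = 0.000264). Stat5a fell in scWAT at 22 °C (log2 -1.04 ± 0.22 SE, adjusted p = 0.00586), with 23.2 to 35 CPM with GC, against 42.7 to 83.5 CPM in Ctrl, and so did Akt2 (log2 -0.93 ± 0.27 SE, adjusted p = 0.0377). The Akt2 call was lost without any 1 of 6 libraries (highest adjusted p = 0.123), without the 2 macrophage-rich (0.201) or the 4 keratin libraries (0.0863), with only the 2 groups in the fit (0.105) and with no low-count filter (0.0602). The Stat5a call was lost without the 2 macrophage-rich libraries (adjusted p = 0.0554). Without the 4 keratin libraries the scWAT means were 0.44 for Socs1 (adjusted p = 0.712), 0.96 for Htra1 (0.217), 1.38 for Grb14 (0.0992) and -1.9 for Stc1 (0.052), while Stc2 still passed. The Htra1 call was also lost without any 1 of 3 libraries (highest adjusted p = 0.0604).

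By the mean temperature effect, 0 rose and 2 fell of 30 in iBAT, where 0.454% of all genes passed. None passed of 32 in goWAT by edgeR (0% of all genes), and 4 had an unadjusted p under 0.05 (7.35%). In scWAT 4 rose and 0 fell of 30, where 11.1% of all genes passed. In iBAT Cish, another STAT5-induced inhibitor, had 2.92 to 6.95 CPM at 13 °C with GC, against 12.2 to 34 CPM at 22 °C, and 4.08 to 7.82 CPM at 13 °C in Ctrl, against 11.3 to 14.9 CPM at 22 °C. Its groups did not overlap by temperature, as in 2.42% of all genes with GC and 6.96% in Ctrl (log2 -1.66 ± 0.24 SE, adjusted p = 0.00466), and it did not pass for GC there (log2 0.29 ± 0.25 SE, adjusted p = 0.701), where Socs2 fell. The Cish call was lost without the 2 macrophage-rich libraries (adjusted p = 0.0536). Irs1, an insulin receptor substrate, was lower at 13 °C in iBAT (log2 -2.26 ± 0.49 SE, adjusted p = 0.0417) and higher in scWAT (log2 1.44 ± 0.4 SE, adjusted p = 0.0285). The iBAT call of Irs1 was lost without any 1 of 14 libraries (highest adjusted p = 0.113), without the 2 macrophage-rich (0.119) or the 3 muscle-rich libraries (0.0831) and with no low-count filter (0.0546). The scWAT call was lost without any 1 of 5 libraries (highest adjusted p = 0.0723) and without the 2 macrophage-rich libraries (0.0786). Akt2, Socs3 and Stat5a were also higher at 13 °C in scWAT, by 0.84, 0.92 and 0.69 on the log2 scale, and none of the 4 scWAT calls held without the keratin libraries. The Socs3 call was also lost without any 1 of 9 libraries (highest adjusted p = 0.0933) and with no low-count filter (0.0539). The insulin receptor gene Insr passed no test within a depot. Igf2, the other ligand, had at most 3 reads in any iBAT library, 6 in goWAT and 17 in scWAT and was not tested.

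The likeness of pattern over the 55 libraries, as Pearson's r of log2 CPM less the depot mean, is given as a description, since libraries share depot, group and depth. The 3 genes most like a member were looked up. Those of Socs2 included Nfkbia and Irf4 (r = 0.81 and 0.79), and those of Igfbp3 included Stxbp6 and Prrg3 (0.82 and 0.81). Ghr was most like Eepd1, Enpp2 and Pxdn (0.86, 0.84 and 0.82), Igf1 most like C2, Ffar2 and Adcy5 (0.86, 0.84 and 0.83) and Igf1r most like Tcf4, Zzef1 and Mbtd1 (0.80, 0.78 and 0.78). Igfbp4 was most like Egfr, Slc7a10 and Plod3 (0.75, 0.75 and 0.73), Igfbp5 most like Wfdc21, Maf and Mmp14 (0.71, 0.71 and 0.70) and Igfbp6 most like Rcn3, Cmip and Adamts2 (0.76, 0.67 and 0.66). The genes most like Igfbp7 included Rpl10-ps3 and Pla2g16 (0.78 and 0.77), and Igfbp2, whose highest values were the lowest of these, most like Sesn2, Cdc42ep1 and Irf2bpl (0.58, 0.55 and 0.53).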

How the data were processed

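The authors deposited raw read counts per gene for 55 libraries, in a separate table for each depot. Per the submitters' processing notes, FastQC, GSNAP and featureCounts 1.6.3 were used with the mouse build mm10. How strand and reads with several matches were handled is not given in the sources used here. Gene IDs were matched to GENCODE M21 on GRCm38, which gave symbols, positions and exon lengths, and all 10 members matched. The members, the 35 other pathway genes and the cell type lists were chosen with earlier results of these data known, so no pattern here is independent support for them.

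Each depot was fitted over its 4 groups with edgeR 4.0.16 in R 4.3.3, with TMM scaling, filterByExpr (10 counts at the median library size, 15 in all), robust dispersions and the quasi-likelihood F-test. The fits held 20175 genes for goWAT, 19003 for scWAT and 17163 for iBAT, and 22245 in 1 fit over all libraries for the depots. P-values were adjusted over all genes of a fit by Benjamini and Hochberg, and a gene was called at an adjusted p under 0.05. Standard errors were derived from the F statistic. Group and replicate number were read off the labels. The text names every member, pathway genes called within a depot plus Igf2, Irs1, Irs2, Insr and Cish, the receptor targets Fkbp5 and Tsc22d3, and the 3 genes with the most similar pattern among genes with a mean log2 CPM of at least 3. A few genes that this rule names are not reported here.

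Alternatives were DESeq2 1.42.0, RLE factors, no filter on low counts, limma 3.58.1 with library weights, only the 2 groups compared, a replicate block, and leaving out single libraries or those rich in transcripts of other tissues. The library totals of goWAT spanned 12310822 to 53121372 reads, those of scWAT 8622178 to 56450653 and those of iBAT 14043773 to 35790654. Members other than Igfbp2 had at least 42 reads in every library. PCR reads without molecular identifiers are not independent molecules, so a limit from 0 reads (3 counts) covers counting error only. The fit was tested on simulated counts. None of 101 pairs of libraries within a group was identical. Shares of RefSeq windows with a motif leave out those on chromosome 18.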

Additional observations from a re-analysis of the deposited data

Results flagged for a closer look

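A single library stood far from the rest of its group for 13 of 103 combinations of member and group with 4 or more libraries. The cutoffs give about 1 in 20 for independent, normally distributed values. CPM were not put on a log scale here and combinations share libraries, so 1 in 20 is not the rate of chance in these data. In iBAT with GC at 13 °C, replicate 2 held the highest Igf1 at 92 CPM (others 4.03 to 15.6 CPM), the highest Ghr at 541 CPM (others 177 to 247 CPM) and the highest Igfbp4 at 88.9 CPM (others 16.7 to 18.8 CPM). In iBAT with GC at 22 °C, replicate 2 had the lowest Igfbp6 at 7.02 CPM (others 12.1 to 14 CPM). In goWAT, GC replicate 2 at 13 °C had 216 CPM of Igf1 (others 132 to 143 CPM), Ctrl replicate 4 at 13 °C had 7.73 CPM of Igfbp2 (others 1.14 to 2.88 CPM), and Ctrl replicate 4 at 22 °C had 759.8 CPM of Igfbp4 (others 324 to 384 CPM).

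In scWAT, GC replicate 1 at 22 °C had 3274 CPM of Ghr (others 1160.2 to 1679.8 CPM) and GC replicate 5 at 13 °C had 1269 CPM of Igfbp4 (others 417 to 482 CPM). Ctrl replicate 1 at 22 °C had 38.1 CPM of Igfbp3 (others 8.07 to 10.4 CPM) and Ctrl replicate 3 at 22 °C had 501 CPM of Igfbp4 (others 323 to 349 CPM). Ctrl replicate 5 at 13 °C had 100.2 CPM of Igfbp5 (others 33.6 to 51.1 CPM), and Ctrl replicate 4 at 13 °C had the lowest Igfbp6 at 45.5 CPM (others 69.8 to 77 CPM).

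The GC effect differed between depots for Igfbp5 at 22 °C (adjusted p = 0.00836) and, averaged over the temperatures, for Igfbp4 (adjusted p = 0.00498), Igfbp5 (adjusted p = 0.00659) and Igfbp3 (adjusted p = 0.0418).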

How the results depend on the processing

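The number of members called moved with the method, and the cause was not tested. For GC in iBAT at 22 °C (1 called), DESeq2, RLE factors, no low-count filter and leaving out the muscle-rich libraries gave 2, limma 5, and the 2 groups alone, the replicate block and leaving out the macrophage-rich libraries 0, with 0 to 2 as single libraries were left out. For its mean (2) limma gave 5 and the macrophage-rich libraries' removal 1 (single libraries 1 to 3). For GC in goWAT at 13 °C (1), DESeq2 gave 3, limma 5, the 2 groups alone and the low-quality libraries' removal 2, the brown fat libraries' removal 4, and the replicate block and the epididymis libraries' removal 0 (single libraries 0 to 3). For GC in scWAT, limma gave 1 at 22 °C (2; single libraries 1 to 2) and the keratin libraries' removal 0 at 13 °C (2; single libraries 2 to 3). For 13 °C in iBAT, DESeq2 gave 1 and limma 6 within Ctrl (0; single libraries 0 to 1), and limma 5 and the muscle-rich libraries' removal 1 for the mean (0; single libraries 0 to 1). For 13 °C in scWAT, DESeq2 and limma gave 2 within Ctrl (0; single libraries 0 to 1), DESeq2 1 and limma 2 within GC (0; single libraries 0 to 2), and the keratin libraries' removal 0 for the mean (3; single libraries 2 to 3). For goWAT against scWAT (3) that removal gave 1, and leaving out 1 replicate number 1 to 2. For the GC effect between depots at 22 °C (1), limma gave 3, the removal of brown fat or muscle-rich libraries 2 and of macrophage-rich iBAT libraries 0 (replicate numbers 0 to 2). At 13 °C (0) limma gave 1 (0 to 1), and for the mean (3) limma gave 6 (1 to 2). Counts left within 1.5 times by every alternative other than single libraries were, over single libraries, 2 to 4 for GC in goWAT at 22 °C (3), 4 to 6 for its mean (5), 3 to 4 for the mean in scWAT (3), 1 for GC in iBAT at 13 °C (1), 8 to 9 for iBAT against goWAT (9) and 7 for iBAT against scWAT (7).

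Over 151 single-gene results and 3605 alternatives, direction and side of the threshold held in 3230, 109 passed newly, 265 no longer passed, and 1 reversed: Socs1 in scWAT with GC, 13 °C against 22 °C, was 1.62 on the log2 scale and -0.70 (adjusted p = 0.77) without the keratin libraries. Igfbp5 for GC in iBAT at 22 °C passed with DESeq2, limma, RLE factors, no filter and without Ctrl replicate 3. Replicate numbers were not used as pairs. Between conditions of 1 depot, 6 of 27 same-numbered pairs in goWAT, 7 of 24 in iBAT and 5 of 24 in scWAT had deviations correlated over 0.1. Whether a number marks the same mouse in different depots was not examined. A replicate block lost 15 of 151 results and left 136 as they were. Among the members it lost Socs2 for GC in iBAT at 22 °C (adjusted p = 0.0534) and Igfbp3 for GC in goWAT at 13 °C (0.0526). The removal of keratin libraries leaves 1 scWAT GC library at 13 °C. DESeq2 was not run for the effects between depots. Depth limits Igfbp2 in iBAT and scWAT.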
